A study of Mus musculus with 36 samples.

Results

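Transcripts of 9 genes of the integrated stress response, Atf4, Atf5, Ddit3, Trib3, Chac1, Ppp1r15a, Ddit4, Sesn2 and Asns, were followed in SLAM-seq libraries of mouse embryonic stem cells (mES cells). The genes were chosen by symbol, and 9 of 9 were listed in each of the 6 deposited tables, which held 22979 genes in any table and 18419 genes in all of them. In SLAM-seq the uridine analogue 4-thiouridine (4sU) enters new RNA and is modified with iodoacetamide, so that reverse transcription reads it as C. RNA of the pulse is therefore seen by its T-to-C mismatches. There were 36 libraries from 3 lines, each of them 1 clone: METTL3 (clone 12D), YTHDC1 (clone Y12H) and ZCCHC8 (clone Z12H).

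METTL3 places N6-methyladenosine (m6A) on RNA as the enzyme of the writer complex, YTHDC1 binds m6A in the nucleus, and ZCCHC8 belongs to the NEXT complex, which delivers RNA to the nuclear exosome. In each line the named protein carried a tag that directs it to degradation once dTAG-13 is added. The tag was present in both arms, and dTAG cells received dTAG-13 while Ctrl cells did not. All cells were of a Cast x 129S background with a TetOn promoter in place of the Xist promoter on the 129S allele and with Bgl stem-loops in Xist. They were grown on inactivated feeder fibroblasts that were removed by preplating. All cells, Ctrl included, were given doxycycline at 1 µg/ml to induce Xist for 20 h before and then during a 4 h pulse of 500 µM 4sU, and dTAG-13 was added 2 h before doxycycline. The pulse was followed by a chase in 50 mM uridine of 0, 90 or 180 min, with 2 replicates per combination, 18 groups in all, so that a line held 12 libraries and each of its arms 6. Nothing in the labels states that replicates were separate cultures, so p-values measure the spread between these libraries, which may be technical.

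The integrated stress response begins when a stress-sensing kinase phosphorylates eIF2, the factor that brings the initiator tRNA to the ribosome. General translation then falls, while translation of ATF4 rises through upstream open reading frames in its mRNA. ATF4 in turn activates genes for amino acid synthesis and uptake, further transcription factors and feedback inhibitors. The response has been studied widely in amino acid shortage and in endoplasmic reticulum stress, and since ATF4 itself is set by translation, its mRNA level is only a part of the response.

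ATF4 binds DNA with a C/EBP partner at composite elements whose core is TGATGNAA. This motif was looked for, on either strand, in the RefSeq promoter windows of build GRCm38.p6, which reach from 250 bases before a gene's start to 50 bases inside it. It was present in 1304 of 32851 windows (3.97%). Of the 10 windows of the 9 genes it was present in 3, which belonged to 3 genes. The matches and their surroundings are shown because they are the letters by which ATF4 could bind these 3 genes, with the match in capitals, 5′ to 3′ on the strand of the gene.

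Chac1, chr2:119351024-119351081, plus strand: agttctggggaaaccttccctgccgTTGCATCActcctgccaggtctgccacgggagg
Asns, chr6:7693214-7693243, minus strand: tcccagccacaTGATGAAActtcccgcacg
Trib3, chr2:152344028-152344057, minus strand: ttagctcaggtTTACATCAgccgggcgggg

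In Chac1 the match lay 193 bases before the start and in the reverse orientation. In Asns it lay 23 bases before the RefSeq start and in the forward orientation. In Trib3 it was reversed and began at base 15 inside the gene, counted from the RefSeq start. The gene spans given further below start elsewhere, so these distances hold for RefSeq starts only. For the other 6 genes these letters were not in the window. A match is a description of the sequence only.

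The cells carried the markers of mES cells. The 8 markers examined (Pou5f1, Nanog, Sox2, Zfp42, Esrrb, Klf4, Dppa5a and Tdgf1) summed to between 2363 and 3902 CPM, the share of the library total on a common scale, and none was at 0 in any library. The 9 feeder fibroblast markers summed to between 7.86 and 31.9 CPM, with Lum at 0 in 22 libraries, Postn in 7, Col3a1 in 4 and Acta2 in 2. Depth was 9547507 to 18652000 reads per library for METTL3, 10397753 to 16129632 for YTHDC1 and 5274684 to 10257631 in the ZCCHC8 line. A degron acts on protein, so the mRNA of the tagged genes does not check the depletion, and it was not analysed here. In bulk RNA, fewer cells that express a gene and less of its RNA per cell cannot be told apart.

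The 9 genes differed widely in abundance. On the scale of CPM per kb of annotated exon length, over the 18 Ctrl libraries, Asns, which makes asparagine from aspartate, was at 178.5 ± 50.8 (SD, n = 18, range 105.6 to 293). Atf4, the basic leucine zipper factor at the centre of the response, was at 100.4 ± 17.0 (72.9 to 141). Ddit4 and Sesn2, which both restrain the growth kinase complex mTORC1, were at 77.7 ± 17.6 (53.5 to 123) and 65.9 ± 14.6 (38.1 to 87.8). These 4 were the abundant members, and the ranges of neighbours in this order overlapped.

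The other 5 genes were lower. Trib3, a pseudokinase that inhibits ATF4 and CHOP, was at 15.8 ± 2.26 CPM per kb (12.4 to 21.7), below every Ctrl library of Sesn2. Ddit3, which encodes CHOP, a partner of ATF4 linked to cell death, was at 9.01 ± 2.04 (6.15 to 12.5). Ppp1r15a, which encodes GADD34, the phosphatase subunit that reverses eIF2 phosphorylation, was at 6.37 ± 2.26 (3.30 to 10.5). Atf5, a factor related to ATF4, and Chac1, an enzyme that degrades glutathione, closed the order at 4.53 ± 0.991 (2.62 to 6.01) and 0.872 ± 0.324 (0.409 to 1.56), and their ranges did not overlap. The ranges of the other neighbours in this order overlapped, those of Trib3 and Ddit3 only just.

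The depth behind these levels set their precision. Asns had 1330 to 7499 reads per library, Atf4 846 to 4062, Sesn2 983 to 3472 and Ddit4 498 to 2514. Trib3 had 134 to 557 reads, Ppp1r15a 85 to 371, Atf5 31 to 144, Ddit3 34 to 136 and Chac1 8 to 37. Values of the last 3 genes therefore carry more counting error than those of the others.

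The positions in GENCODE M21 (mm10) show which genes share their locus. Atf4 (ENSMUSG00000042406, chr15:80255184-80257541, plus strand), Ddit4 (ENSMUSG00000020108, chr10:59949669-59951834, minus), Trib3 (ENSMUSG00000032715, chr2:152337422-152344032, minus), Chac1 (ENSMUSG00000027313, chr2:119351229-119354381, plus) and Asns (ENSMUSG00000029752, chr6:7675169-7693254, minus) overlapped no other annotated gene. Atf5 (ENSMUSG00000038539, chr7:44812256-44816658, minus) overlapped Nup62 and Il4i1, and Ppp1r15a (ENSMUSG00000040435, chr7:45522916-45526268, minus) overlapped Tulp2, all on the opposite strand. Sesn2 (ENSMUSG00000028893, chr4:132492032-132510501, minus) overlapped the noncoding Gm12981. Ddit3 (ENSMUSG00000025408, chr10:127290774-127296288, plus) overlapped Mars and Gm4189 on the opposite strand and another locus of the same name on its own strand. The use of strand in the authors' counting is not given in the sources used here, so values of these 4 genes may hold reads of their neighbours.

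**Figure D1:**
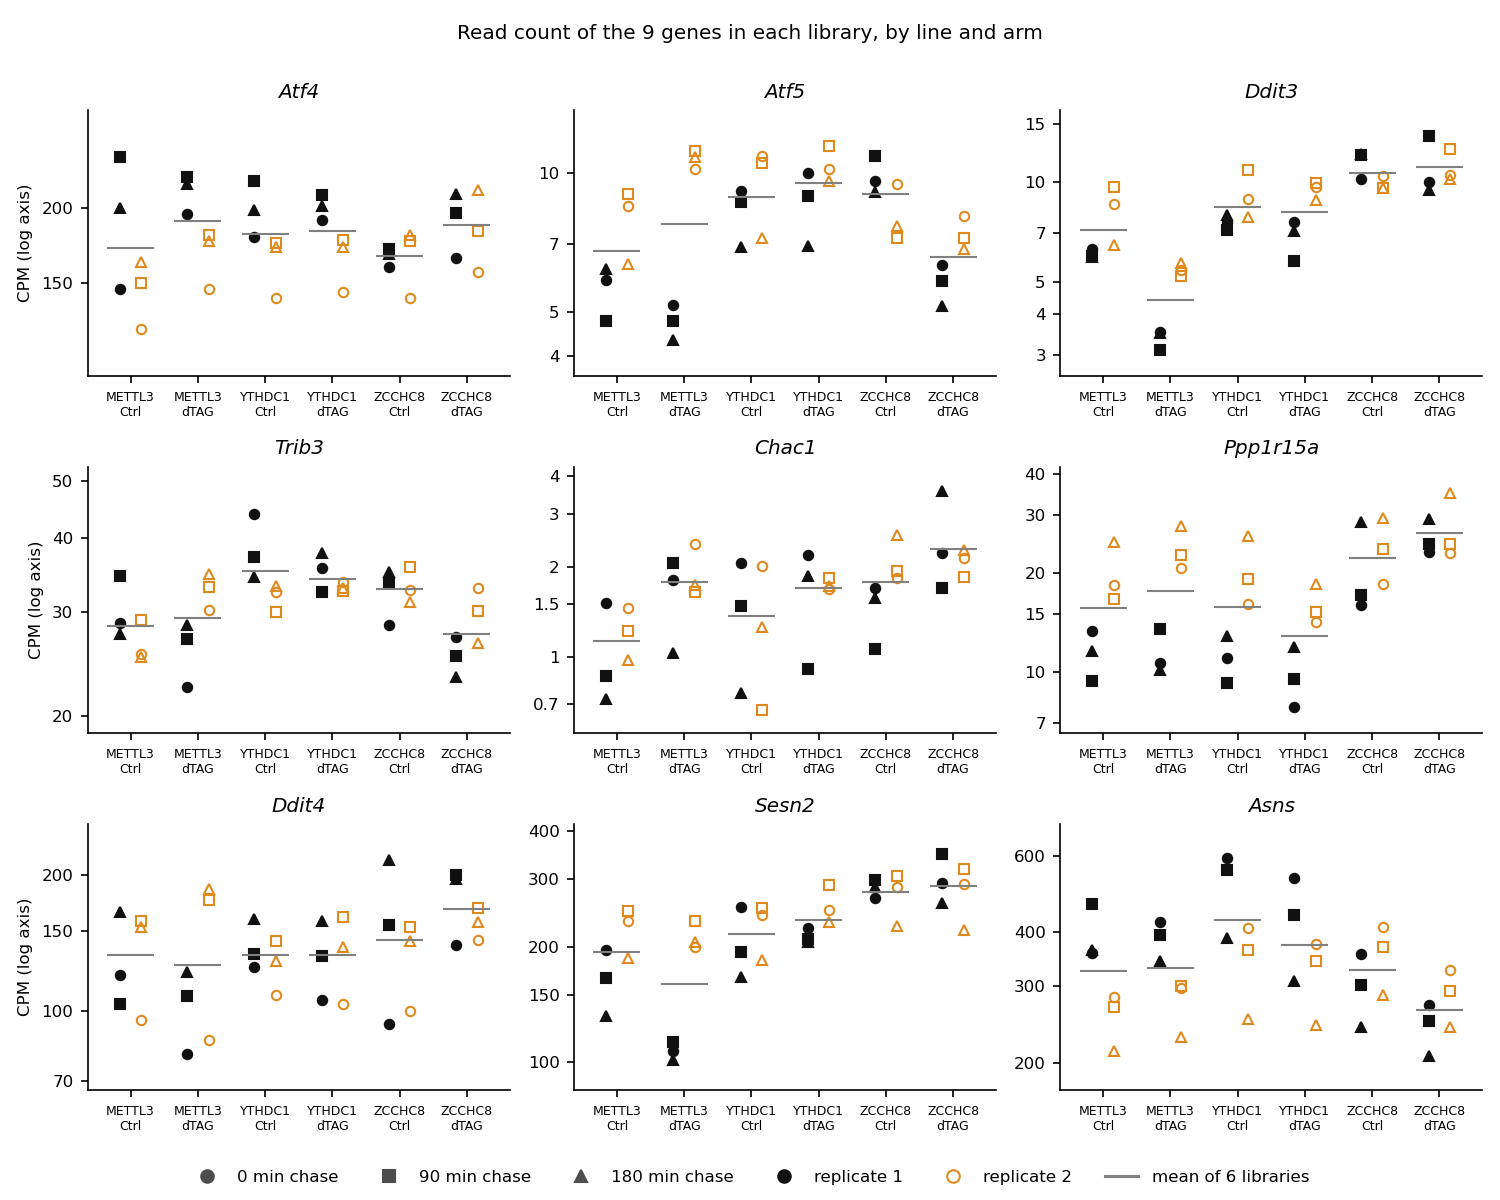
Read count of each of the 9 genes in every library, in CPM on a log axis, by line and arm (Ctrl and dTAG); marker shape gives the chase time, filled black markers are replicate 1, open orange markers replicate 2, and grey lines the mean of 6 libraries. In the METTL3 line the 6 dTAG libraries of Ddit3 lie below the 6 Ctrl libraries, while for the other genes the arms overlap in that line. Overlap was not counted over all genes.

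At the end of the pulse, most of these transcripts were almost wholly new. The MAP ratio, GRAND-SLAM's estimate of the share of a gene's RNA that was made during labelling, was read in 12 series (3 lines, 2 arms and 2 replicates). At 0 min of chase its median over the 12 series was 0.984 for Ppp1r15a (0.846 to 1.00), 0.971 for Sesn2 (0.899 to 0.999) and 0.957 for Trib3 (0.797 to 0.991). It was 0.953 for Ddit4 (0.859 to 1.00), 0.953 for Chac1 (0.663 to 1.00), 0.943 for Atf4 (0.855 to 0.982) and 0.939 for Ddit3 (0.760 to 1.00). Over the 10587 genes with enough reads in every library, the median gene was at 0.507 to 0.634 in the 12 series, and 6.43 to 22.1% of genes reached 0.9. The ranges of these 7 genes lay above the median gene of any series.

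Asns and Atf5 stood apart from the other 7. The MAP ratio of Asns at 0 min was 0.174 (0.1599 to 0.232), below the lowest value of any of those 7 genes. That of Atf5 was 0.403 (0.204 to 0.501), which did not overlap with them either. The width of GRAND-SLAM's posterior interval (5% to 95% quantile), a measure of the error within 1 library, had a median of 0.0237 for Asns and 0.186 for Atf5. It was 0.0352 for Atf4, 0.0351 for Sesn2, 0.0441 for Ddit4, 0.0869 for Trib3, 0.121 for Ppp1r15a and 0.198 for Ddit3, and for the sparse Chac1 it was 0.356.

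During the chase the label left the 7 fast genes in every series. After 180 min the MAP ratio was 0.265 for Atf4 (median, 0.154 to 0.447), 0.2999 for Ddit4 (0.203 to 0.445), 0.374 for Sesn2 (0.262 to 0.556) and 0.237 for Ppp1r15a (0.0551 to 0.490). It was 0.397 for Ddit3 (0.240 to 0.635), 0.404 for Trib3 (0.250 to 0.555) and 0.218 for Chac1 (0.0262 to 0.427). Each of the 7 fell in 12 of 12 series. The median gene of all 10587 stood at 0.349 to 0.568 at that time.

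The fall can be expressed as the half-life of the share, from a log-linear fit of the MAP ratio over the chase. In Ctrl cells the median over the 6 series was 92.3 min for Ppp1r15a, 93.5 min for Chac1, 105 min for Atf4 and 114 min for Ddit4. It was 140.5 min for Sesn2, 148 min for Trib3 and 152 min for Ddit3. Among all genes, a median of 0.888% had a steeper loss than Ppp1r15a, 2.31% than Atf4, 3.92% than Ddit4, 9.53% than Sesn2, 10.9% than Ddit3 and 11.4% than Trib3. The share falls through decay of labelled RNA and also through new, unlabelled RNA, so these times are not decay rates alone. Computed from the T-to-C rate (conversions over T coverage, with no background subtracted), the median half-life of the 7 genes was 78.8 min in place of 114.3 min.

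In Ctrl cells the mean half-life of each of the 7 genes from the MAP ratio was highest in the ZCCHC8 line, where its spread was wide. Sesn2 was at 140.5 ± 0.789 min for METTL3, 121.6 ± 0.318 for YTHDC1 and 185.1 ± 48.5 for ZCCHC8 (SD, n = 2). Trib3 was at 148.2 ± 2.06, 125.9 ± 18.3 and 199.9 ± 28.5 min, and Atf4 at 105.1 ± 1.88, 86.8 ± 8.82 and 137 ± 34.3 min. From the T-to-C rate, Ddit3, Trib3 and Chac1 were again highest in the ZCCHC8 line. Atf4, Ddit4, Sesn2 and Ppp1r15a were then highest in the METTL3 line. By that rate Sesn2 was at 94.95 ± 14.99 min for METTL3 and 93.78 ± 11.24 for ZCCHC8. Atf4 was at 79.52 ± 7.25 and 78.79 ± 10.52 min. With 2 replicates no test was made, and lines differ in clone and in table. In the ZCCHC8 Ctrl cells of replicate 1, the MAP ratio rose over the chase in 54.5% of all genes, the highest share of the 12 series (lowest 26.0%), and its part in these values was not tested.

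**Figure D2:**
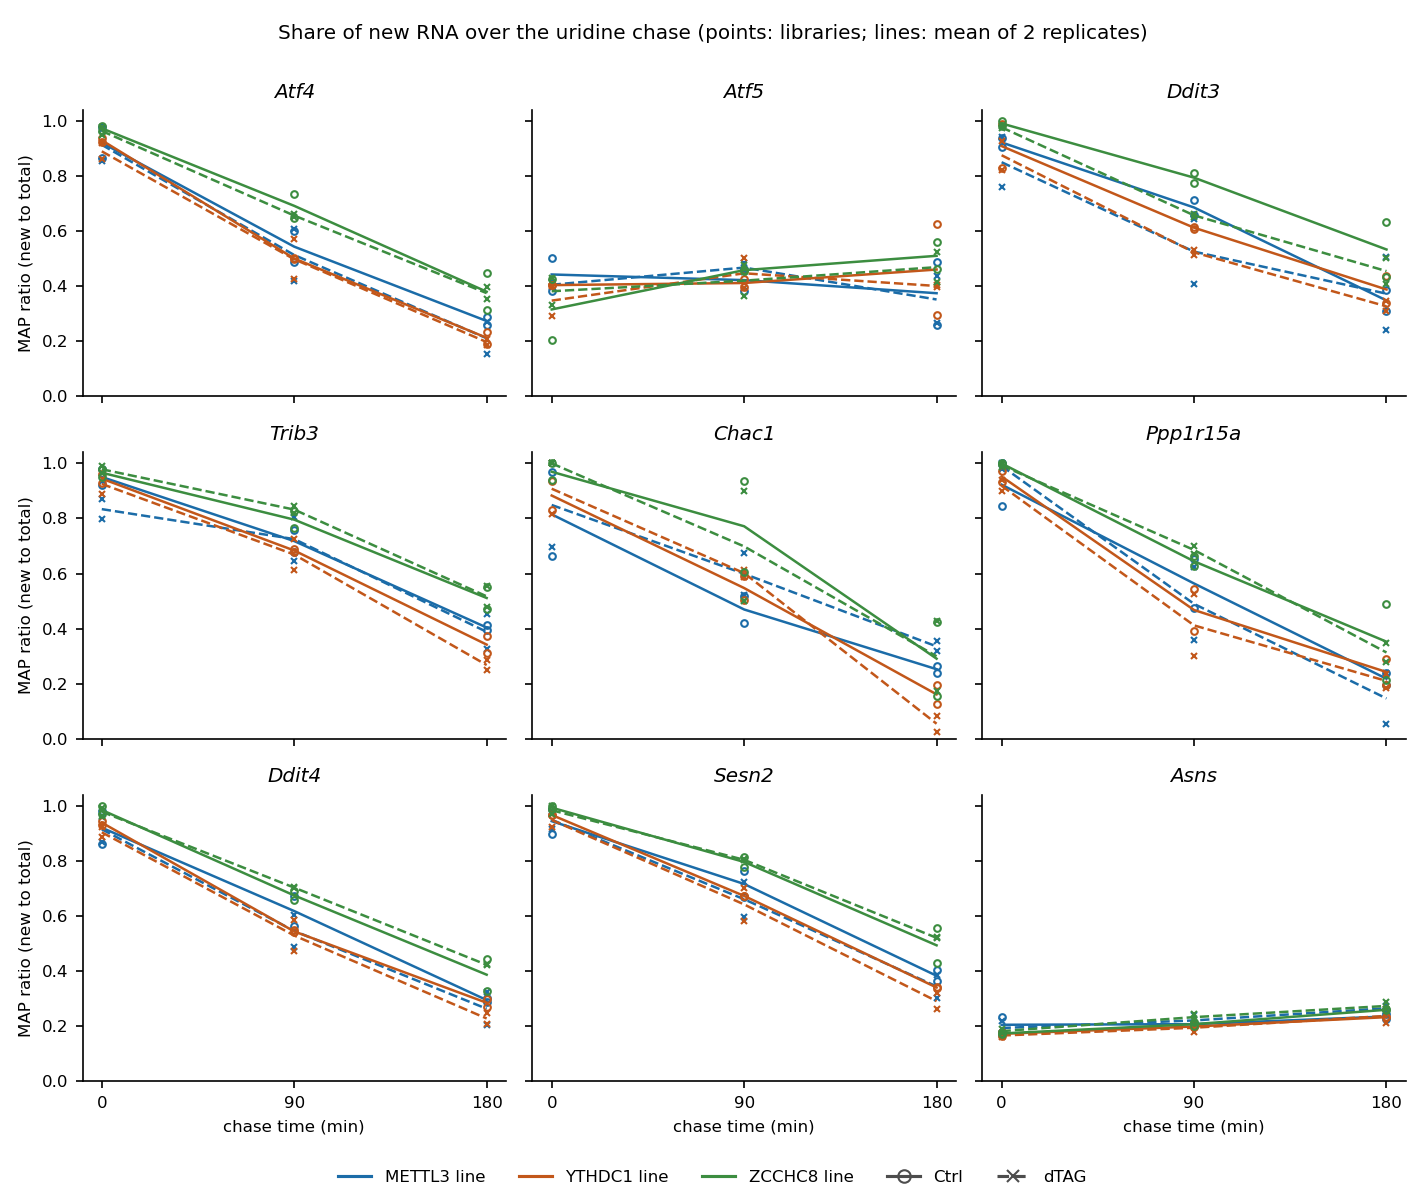
MAP ratio (share of new RNA, 0 to 1) of each gene against chase time in min; points are libraries, lines the mean of 2 replicates, colours the lines, with solid lines for Ctrl and dashed lines for dTAG. The ratio starts at 0.663 or higher and falls in all 12 series for 7 genes, while Asns starts at 0.1599 to 0.232 and Atf5 at 0.204 to 0.501.

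Asns went the other way. Its MAP ratio rose from a median of 0.174 to 0.257 (0.211 to 0.286) over 180 min and was higher at 180 than at 0 min in 11 of 12 series. A rise in this share over the chase was common, since between 26.0% and 54.5% of all genes showed it. The MAP ratio of Atf5 was 0.427 at 180 min (0.260 to 0.626), having risen in 8 series and fallen in 4. The loss was steeper than that of Asns in 84.9% of genes and steeper than that of Atf5 in 67.0%.

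Multiplying CPM by the ratio separates labelled from unlabelled RNA. In Ctrl cells (n = 6) the labelled RNA of Asns was at 72.7 CPM at 0 min and 69.8 CPM at 180 min, while its unlabelled RNA went from 328.8 ± 90.2 to 220.9 ± 56.1 CPM (SD). In these Ctrl means the rise of its share therefore came with less unlabelled RNA and not with more labelled RNA. In dTAG cells its labelled RNA went from 92.33 to 93.58 and 49.88 to 58.9 CPM in METTL3 (replicates 1 and 2). It went from 51.17 to 59.3 and 56.94 to 63.16 CPM in ZCCHC8, and from 91.32 to 81.37 and 60.14 to 51.43 CPM in YTHDC1. Atf4 showed the opposite course, with labelled RNA going from 140.2 to 51.7 CPM and unlabelled RNA from 8.88 ± 6.84 to 128.8 ± 22.4 CPM.

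The other fast genes followed Atf4. Sesn2 went from 239 to 83.2 CPM labelled and from 7.11 to 114 CPM unlabelled. Ddit4 went from 101.2 to 53.2 CPM labelled and from 6.04 to 107.8 unlabelled, and Ppp1r15a from 15.04 to 6.13 labelled and from 0.544 to 16.1 unlabelled. Trib3 went from 30.4 to 13.1 CPM labelled and from 1.56 to 18 unlabelled, Ddit3 from 8.201 to 3.71 and from 0.449 to 4.60, and Chac1 from 1.57 to 0.302 and from 0.1902 to 1.01. In these means unlabelled RNA exceeded labelled RNA at 180 min in each of these 7 genes. In ZCCHC8 Ctrl cells of replicate 1 labelled RNA was still the larger for Sesn2 (159 against 127.1 CPM), Trib3 (19.34 against 15.73) and Ddit3 (7.707 against 4.432). It was the smaller there for Atf4, Ddit4, Ppp1r15a and Chac1. The labelled RNA of Atf5 was at 3.38 and 3.30 CPM, and its unlabelled RNA at 5.53 ± 1.57 and 3.94 ± 0.905 CPM.

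**Figure D3:**
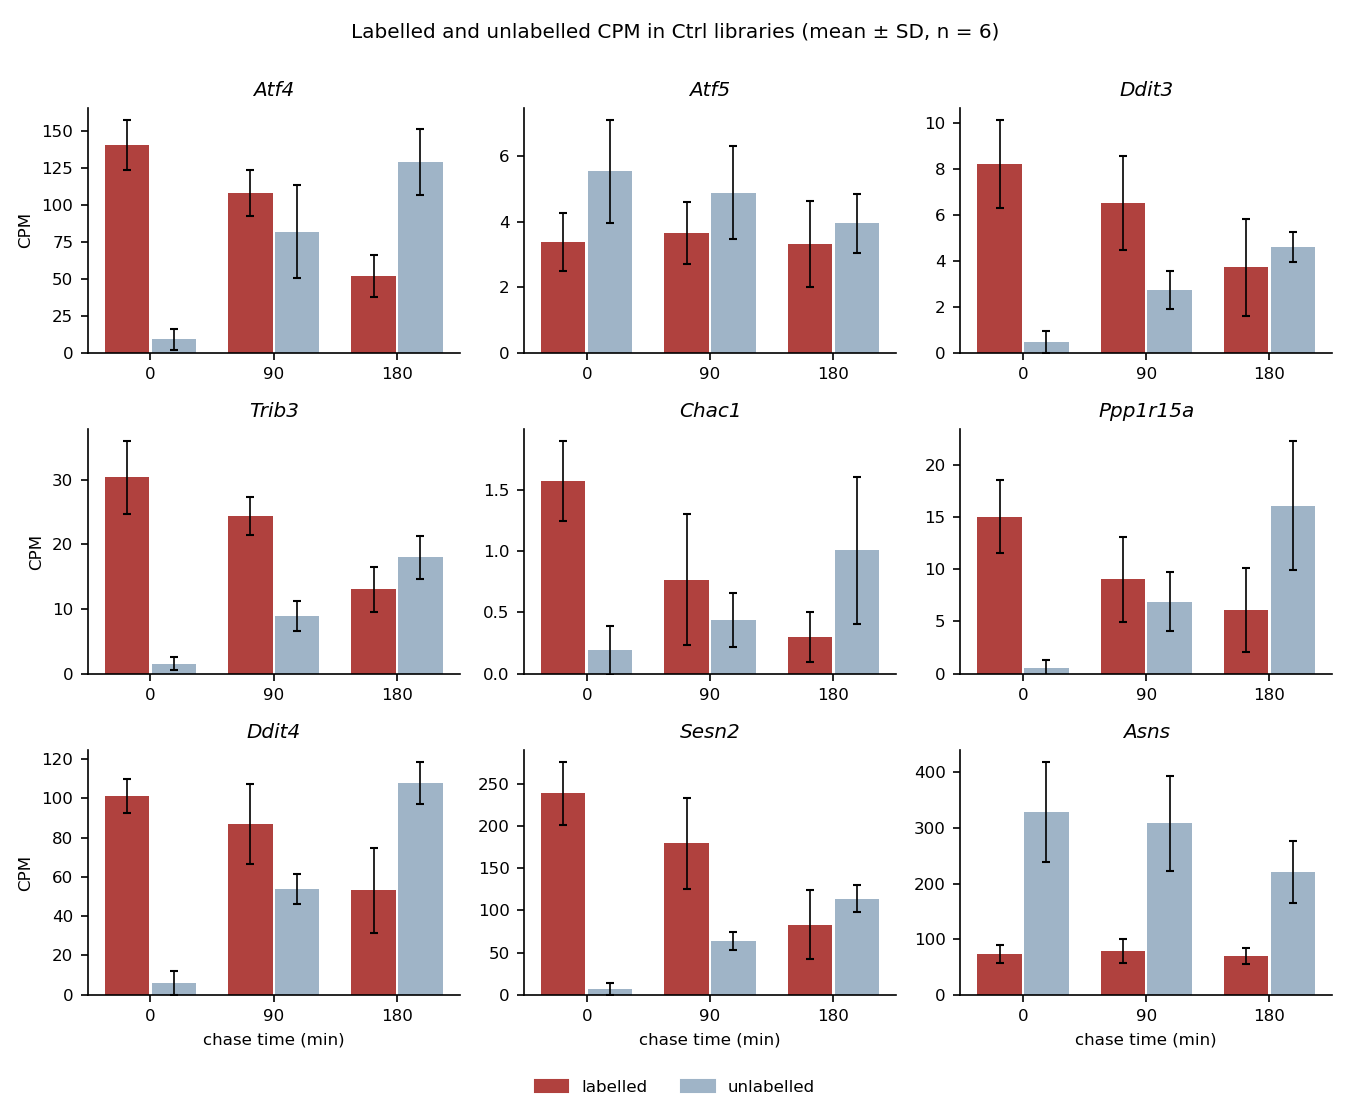
Labelled and unlabelled CPM of each gene at 0, 90 and 180 min of chase in Ctrl libraries (mean and SD, n = 6). Atf4 goes from 140.2 to 51.7 CPM labelled and from 8.88 to 128.8 CPM unlabelled, while Asns keeps 72.7 and 69.8 CPM labelled and loses unlabelled RNA.

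Other genes of the pathway held both kinds of label course. The gene lists used here were chosen with results of these data known. Of the 8 members with enough reads, 6 had a mean Ctrl MAP ratio of at least 0.7 at 0 min, and so did 5 of 6 measured ATF4 targets among transcription factors and secreted proteins. None of 18 aminoacyl-tRNA synthetases, the enzymes that charge tRNA, and none of 11 enzymes of amino acid synthesis reached it. The ratio was higher at 180 than at 0 min in 18 of these 18 and in 11 of these 11 genes, as it was for Asns. Over all genes 4399 of 10587 reached 0.7 and 4242 rose.

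Removal of METTL3 raised 1 of the 9 genes, Chac1. It stood at 0.725, 1.10 and 1.52 CPM (lowest, median and highest of 6 Ctrl libraries) and at 1.03, 1.78 and 2.39 CPM in dTAG libraries. The arms overlapped, but each dTAG library exceeded the Ctrl library of the same replicate and chase time, in 6 of 6 pairs. The log2 fold change was 0.70 (SE 0.207, edgeR quasi-likelihood adjusted p = 0.0354). At 9 to 37 reads per METTL3 library this call was not firm, and with DESeq2 the adjusted p was 0.0539. In replicate 1 alone the log2 fold change was 0.77 and in replicate 2 alone 0.65, neither past the threshold (adjusted p over all 8 alternatives 0.00743 to 0.684). Of all genes tested, 19.9% were called in this comparison, 11.2% as higher.

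Ddit3 was lower in the METTL3 dTAG cells without passing the threshold in the design without a replicate block. In replicate 1 its Ctrl libraries were at 6.28, 5.997 and 5.96 CPM at 0, 90 and 180 min, and its dTAG libraries at 3.53, 3.11 and 3.51 CPM. In replicate 2 they were at 8.58, 9.64 and 6.45 CPM in Ctrl and 5.42, 5.22 and 5.70 CPM in dTAG. The 6 dTAG libraries lay below the 6 Ctrl libraries, with no overlap. How many of all genes had arms that did not overlap was not counted.

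The log2 fold change of Ddit3 was -0.68 (SE 0.225, edgeR adjusted p = 0.0536). With the replicate number as a block it was -0.71 (adjusted p = 0.0002044), and with the block 48.2% of all genes were called. It also passed with DESeq2 (-0.70, adjusted p = 0.0171) and in each replicate alone (-0.81 in replicate 1 and -0.59 in replicate 2). It did not pass where chase libraries were summed to 2 per arm (-0.70) or where 0 min libraries were used alone (-0.705), and the adjusted p ranged from 0.0002044 to 0.691 over the 8 alternatives.

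The other 7 genes were not called in the METTL3 line. Atf4 was at 126, 156 and 243.5 CPM (lowest, median and highest) in Ctrl and 147, 188 and 226 CPM in dTAG, and its log2 fold change was 0.18 (SE 0.134, adjusted p = 0.392 by edgeR). Sesn2 was at -0.25 (SE 0.256), but the block gave -0.32 (adjusted p = 0.014), and the replicates differed, with -0.56 in replicate 1 alone and -0.06 in replicate 2 alone, of which only the first passed. Atf5 was at 0.21, Ppp1r15a at 0.18, Trib3 at 0.06, Asns at 0.04 and Ddit4 at -0.09, with SEs of 0.128 to 0.317. In replicate 2 alone 4 of these genes passed, Atf5 (0.43, adjusted p = 0.00747), Trib3 (0.30, adjusted p = 0.00835), Ppp1r15a (0.25, adjusted p = 0.0455) and Atf4 (0.20, adjusted p = 0.00859). Replicate 1 alone called none of the 4 and gave the opposite sign for Atf5 (-0.17) and Trib3 (-0.18). The median of the 9 genes was 0.06 beside 0.01 over all genes. The feeder markers summed to 10.6 to 28.9 CPM in Ctrl and 10.7 to 31.9 CPM in dTAG, and 1 of 5 tested, Acta2, was higher in dTAG (log2 fold change 1.30), while 1 was higher and 1 lower with the block. Their part in these values was not tested.

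In the YTHDC1 line none of the 9 genes was called by the edgeR test without a replicate block (5.1% of all genes were). In that fit none had an unadjusted p under 0.05, and DESeq2 also called 0. Over all genes 2686 had an unadjusted p under 0.05. Chac1 was at 0.37 (SE 0.254), Sesn2 at 0.14, Atf5 at 0.12 and Atf4 at 0.02. Ddit3 and Trib3 were both at -0.03, and Ddit4 was at -0.00. Atf4 was at 142, 177 and 222 CPM in Ctrl and at 145, 184 and 210 CPM in dTAG, so that the arms nearly coincided.

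With the replicate block, 2 genes were lower in the YTHDC1 dTAG cells, in a fit that called 26.9% of all genes. Asns, at 253, 398 and 591 CPM in Ctrl and 244, 360 and 534 CPM in dTAG, was at -0.17 (edgeR adjusted p = 0.00336), lower in 6 of 6 pairs. Ppp1r15a, at 9.26, 14.5 and 26.0 CPM in Ctrl and 7.82, 13.1 and 18.5 CPM in dTAG, was at -0.27 (adjusted p = 0.024) and higher in only 1 of 6 pairs. The arms overlapped in both genes. Without the block the adjusted p was 0.594 and 0.662. Single replicates called Asns in replicate 1 (-0.27), and Ppp1r15a (-0.37) and Sesn2 (0.18) in replicate 2. The feeder markers summed to 7.86 to 20.6 CPM in Ctrl and 10.2 to 22.2 CPM in dTAG, and 0 of 5 tested were called.

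Removal of ZCCHC8 changed 5 of the 9 genes, against 39.6% of all genes called in that line, 20.1% as higher and 19.5% as lower. Atf4 and Ppp1r15a rose. Asns, Trib3 and Atf5 fell. The median of the 9 genes was 0.08 and that of all genes -0.00.

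Atf4 in the ZCCHC8 line was at 142, 170 and 181 CPM in Ctrl and 156, 190 and 214 CPM in dTAG, and rose by 0.21 in log2 (SE 0.0467, adjusted p = 0.0008202 by edgeR). It was higher in 6 of 6 pairs, and it passed in each replicate alone and where chase libraries were summed (0.20, adjusted p = 0.0264). In the 0 min libraries alone it was at 0.16 and did not pass, and the adjusted p ranged from 8.497e-05 to 0.36 over the alternatives. The arms overlapped in range, also within the 0 min libraries.

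Ppp1r15a was at 16.0, 21.1 and 29.5 CPM in Ctrl and 23.0, 24.5 and 35.0 CPM in dTAG, and its log2 fold change of 0.29 passed (SE 0.0847, adjusted p = 0.00736 by edgeR). All 6 of 6 pairs rose. Replicate 1 alone gave 0.34 (adjusted p = 0.0553) and replicate 2 alone 0.23 (adjusted p = 0.0426). At the end of the pulse the Ctrl libraries were at 16.0 and 18.6 CPM and the dTAG libraries at 23.1 and 23.0 CPM, which do not overlap, but the test at 0 min alone did not call it (0.47, adjusted p = 0.0676). Nor did the test on summed chase libraries (0.26, adjusted p = 0.0741). Overlap at 0 min was not counted over all genes.

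Asns was at 242, 330 and 410 CPM in Ctrl and 208, 261 and 327 CPM in dTAG, with a difference of -0.26 in log2 (SE 0.0676, adjusted p = 0.00483 by edgeR). It was lower in 6 of 6 pairs and in each replicate alone (-0.26 in both), both past the threshold. At 0 min its Ctrl libraries were at 357 and 410 CPM and its dTAG libraries at 271 and 327 CPM, which do not overlap, with no count of this over all genes. The call was lost in the 0 min libraries alone (-0.30, adjusted p = 0.0859) and where chase libraries were summed (-0.26, adjusted p = 0.114).

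Atf5 and Trib3 depended on 1 replicate. Atf5 was at 7.24, 9.29 and 10.9 CPM in Ctrl and 5.14, 6.57 and 8.07 CPM in dTAG (log2 fold change -0.42, SE 0.129, edgeR adjusted p = 0.012). Replicate 1 alone gave -0.74, a call, and replicate 2 alone gave -0.09, no call. Trib3 was at 28.5, 33.1 and 35.7 CPM in Ctrl and 23.3, 26.9 and 32.9 CPM in dTAG (-0.22, SE 0.0812, adjusted p = 0.0362), and here replicate 1 alone gave -0.34, a call, and replicate 2 alone -0.11, no call. Neither gene passed where chase libraries were summed (-0.43 and -0.23) or at 0 min alone (-0.36 and 0.03). The feeder markers summed to 19.0 to 27.0 CPM in Ctrl and 19.1 to 28.7 CPM in dTAG, and 0 of 5 tested were called there. Of 8 mES cell markers, 3 were higher in these dTAG cells, Tdgf1 (0.24) and Dppa5a (0.20) among them, and none was lower, and with the block 4 were higher and 1 lower. Their part in these values was not tested.

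The remaining 4 genes were not called in the ZCCHC8 line. Chac1 was at 0.43 (SE 0.218), Ddit4 at 0.29 (SE 0.129) and Ddit3 and Sesn2 both at 0.08. Ddit4 passed only in the 0 min libraries alone (0.61, edgeR adjusted p = 6.125e-05) and in replicate 2 alone (0.30, adjusted p = 8.53e-05). Its adjusted p was 0.107 over all chase times and up to 0.181 under the alternatives. Ddit3 was at 9.56, 10.3 and 12.1 CPM in Ctrl and 9.44, 10.4 and 13.7 CPM in dTAG, nearly the same range.

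**Figure D4:**
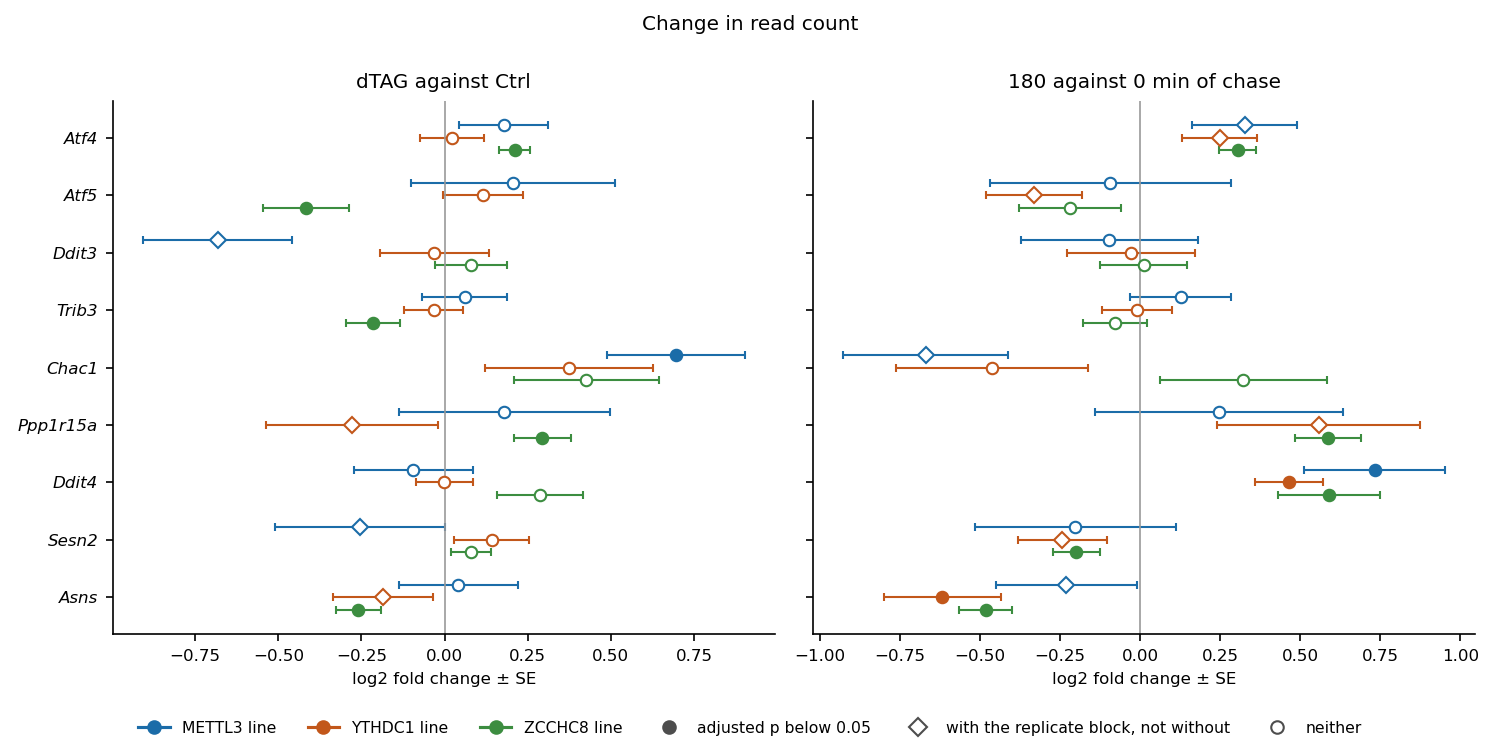
Log2 fold change of read count (± SE) of each gene, dTAG against Ctrl (left) and 180 against 0 min of chase (right), with a colour per line; filled circles passed an adjusted p of 0.05, open diamonds passed with the replicate block and not without it, open circles passed neither. Chac1 in the METTL3 line and Atf4, Ppp1r15a, Asns, Trib3 and Atf5 in the ZCCHC8 line are filled on the left, and Ddit4 is filled in all 3 lines on the right.

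The responses of the 3 lines were compared as interactions over all 36 libraries. The response of Ddit3 in the ZCCHC8 line exceeded that in the METTL3 line by 0.73 in log2 (SE 0.248, adjusted p = 0.032 by edgeR; 0.000261 to 0.0274 over the alternatives). This was 1 of 9 genes, in a comparison where 23.4% of all genes were called. Between METTL3 and YTHDC1 no gene of the 9 was called (20.2% of all genes), with 1 at an unadjusted p under 0.05 and 1 called by DESeq2. Ddit3 was at -0.67 (adjusted p = 0.0511) there without the block and -0.69 (adjusted p = 0.00056) with it. Between ZCCHC8 and YTHDC1 none was called by edgeR (14.3% of all genes), none had an unadjusted p under 0.05 and DESeq2 called 0.

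With the replicate block more responses differed, in fits that called 42.2, 32.0 and 43.1% of all genes. METTL3 then differed from YTHDC1 also in Sesn2 (-0.47), Ppp1r15a (0.42) and Asns (0.20). ZCCHC8 differed from YTHDC1 in Atf5 (-0.59) and Ppp1r15a (0.51). ZCCHC8 differed from METTL3 also in Atf5 (-0.61), Sesn2 (0.36) and Asns (-0.35).

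The share of new RNA did not pass a test between the arms for any member. Chac1 had fewer than 20 reads in some libraries and was left out, and in the limma test of the MAP ratio 0 of 8 genes passed in any line, where 21.3, 0.103 and 0.166% of all genes did (METTL3, YTHDC1 and ZCCHC8). At an unadjusted p under 0.05 the counts were 0, 1 and 0, the 1 being Ddit3 in the YTHDC1 line (-0.17). In the METTL3 line the log2 differences of the 8 genes ran from -0.32 (Ppp1r15a) to 0.06 (Asns) with a median of -0.11, and the median of all genes was -0.15. In the YTHDC1 line they ran from -0.17 to -0.02, 8 of 8 below 0, with a median of -0.12 beside -0.03 over all genes. In the ZCCHC8 line they ran from -0.17 to 0.10, with a median of 0.03 beside -0.04. The rate of label loss over the chase gave 0 of 8 in each line too, with 0.132, 0.0 and 0.0% of all genes called and no member at an unadjusted p under 0.05.

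Half-lives by arm show what these tests compared. Atf4 was at 105.1 ± 1.88 min in Ctrl and 86.9 ± 17.1 min in dTAG cells of the METTL3 line, 86.8 ± 8.82 and 84.9 ± 2.12 min for YTHDC1, and 137 ± 34.3 and 135 ± 14.9 min for ZCCHC8 (SD, n = 2). Ddit3 was at 132 ± 24.5 and 157.5 ± 65.7 min in the METTL3 line. Ppp1r15a in that line was at 89.9 ± 16.4 and 67.7 ± 31.4 min. Of the 7 genes with a half-life in every replicate, the arms differed by more than the larger of their SDs in 2 in the METTL3 line, Atf4 and Sesn2, in 4 in the YTHDC1 line, Ddit4, Trib3, Chac1 and Sesn2, and in 0 in the ZCCHC8 line. The dTAG value was the shorter in each of these, as in Trib3 of the YTHDC1 line with 125.9 ± 18.3 min in Ctrl and 102.6 ± 2.75 min in dTAG. No test was made on half-lives, and genes past this cut were not counted over all genes. The median slope of all genes also gave a shorter half-life in dTAG in replicate 1. It went from 521.2 to 374.2 min for METTL3 and from 557.4 to 372.4 min for YTHDC1. In replicate 2 it was longer in dTAG, from 605.2 to 2393 min and from 385.4 to 393.8 min. The part of this shift in the member values was not tested.

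Read counts themselves moved during the chase, in both arms together. Ddit4 rose in all 3 lines from 0 to 180 min. It was at 80.3 to 120 CPM at 0 min and 122 to 186 CPM at 180 min in the METTL3 line (log2 fold change 0.73, SE 0.22, edgeR adjusted p = 0.0438, 15.8% of all genes called). In the YTHDC1 line it went from 104 to 125 CPM up to 129 to 159 CPM (0.46, adjusted p = 0.00501, 40.5% of all genes), and in the ZCCHC8 line from 93.9 to 144 CPM up to 143 to 216 CPM (0.59, adjusted p = 0.00937, 59.7% of all genes). The times did not overlap in the METTL3 and YTHDC1 lines and met in the ZCCHC8 line. How many of all genes had times that did not overlap was not counted. Each matched pair rose, 4 of 4 in each line. In Ctrl libraries alone only the ZCCHC8 line passed. In that line, over both arms, replicate 1 alone gave 0.83 and replicate 2 alone 0.32, both past the threshold.

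Part of this rise was present by 90 min. Ddit4 was then at 0.40 in the YTHDC1 line (edgeR adjusted p = 0.0474, 6.45% of all genes called) and at 0.51 in the ZCCHC8 line (adjusted p = 0.0435, 24.3% of all genes), where Atf4 was also higher (0.23, adjusted p = 0.00487). In the METTL3 line none of the 9 was called at 90 min (0.239% of all genes), with 2 at an unadjusted p under 0.05, Ddit4 at 0.52 and Atf4 at 0.37.

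In the ZCCHC8 line Atf4 and Ppp1r15a rose with Ddit4. Atf4 went from 142 to 165 CPM up to 168 to 214 CPM (0.30, SE 0.0574, edgeR adjusted p = 6.734e-05), and Ppp1r15a from 16.0 to 23.1 CPM up to 28.6 to 35.0 CPM (0.59, SE 0.104, adjusted p = 3.194e-05). Neither overlapped between the times, which was not counted over all genes. In the other lines neither was called without the block. With it Atf4 passed at 0.33 in the METTL3 line (adjusted p = 0.00759) and 0.25 in the YTHDC1 line (adjusted p = 0.0001365), and Ppp1r15a at 0.55 in the YTHDC1 line. Atf4 also passed in replicate 2 alone in both lines (0.36 and 0.32), and Ppp1r15a in the YTHDC1 line in each replicate alone (0.47 and 0.60). The block fits called 46.6, 66.3 and 63.5% of all genes.

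Asns fell over the chase. It went from 376 to 591 CPM down to 244 to 387 CPM in the YTHDC1 line (-0.62, SE 0.183, edgeR adjusted p = 0.0193) and from 271 to 410 CPM down to 208 to 286 CPM in the ZCCHC8 line (-0.48, SE 0.083, adjusted p = 5.871e-05), lower in 4 of 4 pairs in each. The times overlapped in both lines, since replicates differed in level. In the METTL3 line Asns was at -0.23 and was not called, but it passed with the block (-0.25, adjusted p = 0.0303) and in replicate 2 alone (-0.36, adjusted p = 2.303e-05). Chac1 passed there with the block (-0.65, adjusted p = 0.0454) and under no other alternative. With Ctrl libraries alone Asns was not called in the YTHDC1 line (-0.58).

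Sesn2 was at -0.20 over the chase in the ZCCHC8 line (edgeR adjusted p = 0.0231), a call that rested on replicate 2, which alone gave -0.36, while replicate 1 alone gave -0.04, not past the threshold. In the YTHDC1 line Sesn2 passed with the block (-0.25) and in each replicate alone (-0.31 and -0.19) but not in the fit without the block (-0.24), and Atf5 passed with the block (-0.33) and under no other alternative. Trib3 and Ddit3 were not called over the chase in any line, with values from -0.10 to 0.13. Of 5 tested feeder markers 0 were higher and 1, 0 and 1 lower over the chase in the METTL3, YTHDC1 and ZCCHC8 lines. Of 8 mES cell markers 1, 1 and 3 were higher and 0, 2 and 3 lower. All genes called were 15.8, 40.5 and 59.7%. The feeder marker Thy1 was at -1.16 in the METTL3 and -0.55 in the ZCCHC8 line, and Sox2 at 0.74, 0.49 and 0.64. The part of these markers was not tested. The length of the chase, the time in culture since the pulse and the loss of label cannot be told apart here. Reads with many T-to-C mismatches can be lost at alignment. The part of this in read counts over the chase was not tested.

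The 9 genes did not move as a unit between libraries. After the mean of each line was subtracted, the Pearson correlation of log2(CPM + 1) over the 36 libraries was 0.766 between Sesn2 and Ddit3 and 0.668 between Sesn2 and Atf5, and -0.807 between Ppp1r15a and Asns and -0.617 between Atf5 and Atf4. Libraries of 1 line and replicate share a table, and their levels deviate together. With the mean of each line and replicate subtracted, these 4 correlations were 0.644, 0.348, -0.724 and -0.364. Atf4 itself was at -0.565 with Ddit3 and -0.606 with Sesn2, and at -0.308 and -0.355 once the replicates were centred. Atf5, at -0.617 and -0.364 as given above, was also negative both ways. The remaining members were not negative to this degree in both. Ddit4 was at 0.279 with Atf4, and at 0.5005 once centred. Ppp1r15a went from -0.325 to 0.382 and Asns from 0.186 to -0.372 with this centring. Trib3 and Chac1 were at -0.0239 and -0.107, and at -0.0968 and -0.0331 once centred.

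Several of these genes differed in level between the replicates, and so did genes in general. Over all genes with enough reads, chi-square per degree of freedom between replicates was 20.35 to 77.92 in the METTL3 groups. It was 26.57 to 38.47 in the YTHDC1 and 2.453 to 4.495 in the ZCCHC8 groups. Shifts as large as those below, and replicates that do not overlap, were not counted over all genes. Ppp1r15a was higher in replicate 2 than in replicate 1 by 0.93 ± 0.338 on the log2 scale in the METTL3 line and by 0.80 ± 0.207 in the YTHDC1 line (SD over 6 pairs), in 6 of 6 pairs and with no overlap, but by only 0.16 ± 0.184 in the ZCCHC8 line. Atf5 was higher by 0.84 ± 0.480 and Sesn2 by 0.72 ± 0.320 in the METTL3 line. In the opposite sense, Asns was at -0.56 ± 0.187 for METTL3 and -0.49 ± 0.123 for YTHDC1, and Atf4 at -0.38 ± 0.169 and -0.29 ± 0.0767. In the ZCCHC8 line Asns was at 0.24 ± 0.0316 and Atf4 at -0.03 ± 0.103. Ppp1r15a and Atf5 thus stood on the other side from Asns and Atf4 in the METTL3 line.

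**Figure D5:**
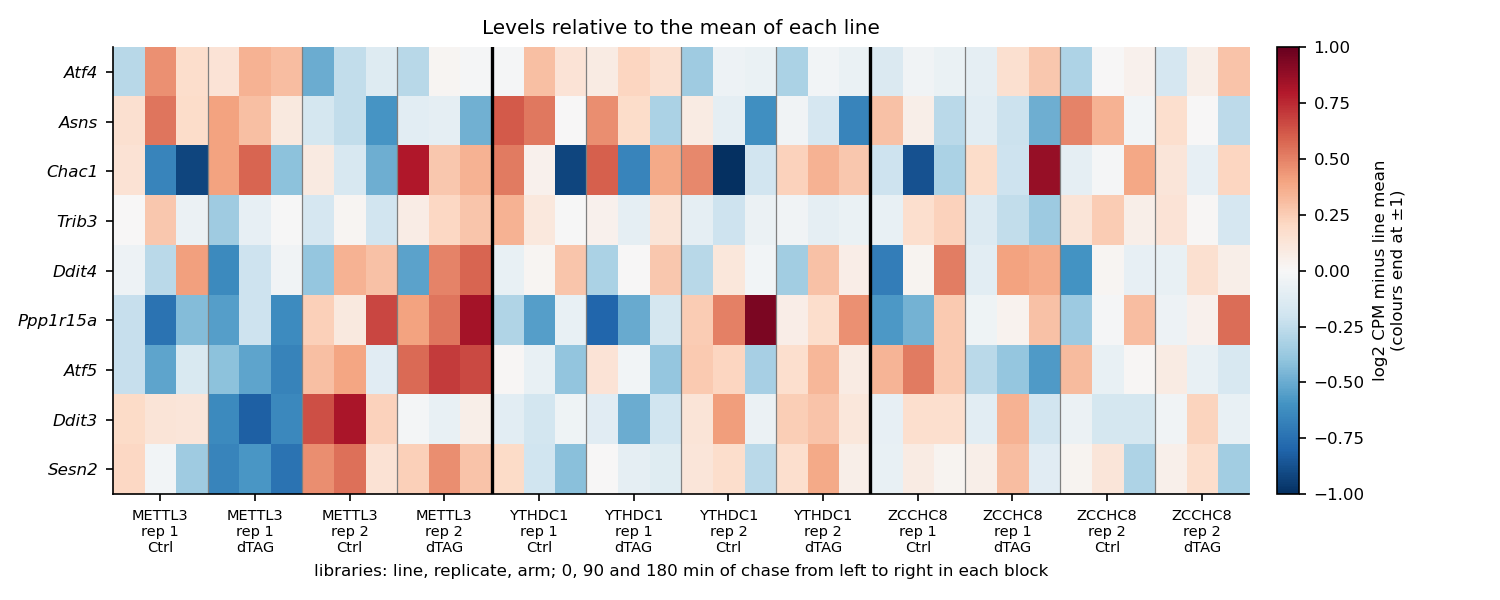
Log2 level of each gene minus its mean in the line, for every library, ordered by line, replicate, arm and chase time (colours end at -1 and 1). In the METTL3 line Ppp1r15a, Atf5 and Sesn2 are on average lower in replicate 1 than in replicate 2, and Asns and Atf4 show the reverse. The replicates of Sesn2 and of Atf4 overlap there.

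Among 10909 genes at a mean of at least 5 CPM (members included), those most like the mean of the 9 standardised members over the 36 line-centred libraries were Aen (r = 0.926), Zscan25 (0.820), Arc (0.813), Ak1 (0.806) and Timm13 (0.806). With replicates centred too, r was 0.9001 for Aen, 0.788 for Zscan25, 0.799 for Arc, 0.727 for Ak1 and 0.691 for Timm13. These genes were picked for a high correlation, so its size is fixed by that choice. The members, not picked by it, were set against the mean of the other 8, and r ran from -0.50 for Atf4 and -0.44 for Asns to 0.583 for Sesn2.

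Further genes of the pathway were counted in the same fits. Of 13 tested genes among the eIF2 kinases and eIF2 and eIF2B subunits, 1 was higher and 2 were lower in METTL3 dTAG cells, none was called in YTHDC1 dTAG cells, and 1 was higher and 2 were lower in ZCCHC8 dTAG cells, where 19.9, 5.1 and 39.6% of all genes were called. With the block 3 were higher and 6 lower for METTL3, 0 higher and 4 lower for YTHDC1 and 1 higher and 2 lower for ZCCHC8, in fits that called 48.2, 26.9 and 45.7% of all genes. In the METTL3 line Eif2ak4, the kinase that senses uncharged tRNA, was higher (log2 fold change 0.33) and Eif2ak3, the kinase of the endoplasmic reticulum, was lower (-0.32). Eif2b4, a subunit of the exchange factor eIF2B, was also lower (-0.58).

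Enzymes that make or charge amino acids were called mostly as lower, beside the same shares of all genes. Of 11 enzymes of amino acid synthesis 0 were higher and 1, 2 and 9 lower in the METTL3, YTHDC1 and ZCCHC8 lines, with medians of -0.19, -0.16 and -0.27. With the block 2 were higher and 4 lower in METTL3, 6 lower in YTHDC1 and 10 lower in ZCCHC8. Pck2, which makes phosphoenolpyruvate in mitochondria, was at -0.88 for YTHDC1 and -0.81 for ZCCHC8, and Cbs, which makes cystathionine, at -0.78 in the METTL3 and -0.40 in the ZCCHC8 line. Psph, the last enzyme of serine synthesis, was at -0.50 in the ZCCHC8 line. Of 18 aminoacyl-tRNA synthetases 0 were higher and 4, 1 and 14 lower, with medians of -0.30, -0.12 and -0.18. The block moved the counts of synthetases that were lower to 14, 8 and 15, with 1 higher in the METTL3 line.

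The synthetases with the largest differences were Iars (-0.64) and Tars (-0.47) in the METTL3 line, Vars (-0.55) in the YTHDC1 line and Sars (-0.33), Gars (-0.31) and Dars (-0.30) in the ZCCHC8 line. Asns, which also makes an amino acid, was lower in the ZCCHC8 line as given above. Among the amino acid transporters Slc1a4, a carrier of alanine, serine and cysteine, rose in METTL3 (1.21) and YTHDC1 dTAG cells (0.80), where 1 of 8 and 2 of 9 tested transporters were higher and none was lower. In the ZCCHC8 line 2 were higher, Slc38a2 (0.26) and Slc3a2 (0.20), and 1 lower, Slc7a1 (-0.30). With the block 2 were higher and 2 lower for METTL3, 3 higher and 0 lower for YTHDC1 and 3 higher and 1 lower for ZCCHC8.

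Of 10 tested targets among transcription factors and secreted proteins, 2 were higher and 2 lower in the METTL3 line, none was called in the YTHDC1 line, and 2 were higher and 2 lower in the ZCCHC8 line. The block made these 3 and 2 for METTL3 and 0 and 1 for YTHDC1. Jdp2, a repressor of the AP-1 family, was lower in the METTL3 (-1.04) and ZCCHC8 lines (-1.03). Atf3, a stress factor next to Ddit3 in the response, was lower in the METTL3 line (-0.68), and Vegfa, an angiogenic growth factor, was higher (0.58). Of 16 chaperones and regulators of the unfolded protein response, 1 was higher and 1 lower in the METTL3 line, 1 higher in the YTHDC1 line, and 5 higher and 2 lower in the ZCCHC8 line, where Dnajb9, a co-chaperone of BiP, was at 0.49 and Xbp1, a transcription factor of that response, at 0.37. With the block these counts were 4 higher and 3 lower, 3 higher and 3 lower, and 6 higher and 2 lower.

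Over the chase the read counts of many of these genes moved as well, with the same limits. From 0 to 180 min, 7, 14 and 17 of 18 synthetases and 1, 7 and 10 of 11 synthesis enzymes were lower in the METTL3, YTHDC1 and ZCCHC8 lines, with 0 synthetases and 0, 0 and 1 synthesis enzymes higher, where 15.8, 40.5 and 59.7% of all genes were called. With the block 15, 17 and 17 synthetases and 7, 10 and 10 synthesis enzymes were lower, and 0, 1 and 1 synthesis enzymes higher, in fits that called 46.6, 66.3 and 63.5% of all genes. Yars, the synthetase for tyrosine, was at -0.57, -0.86 and -0.60.

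Transporters went both ways over the chase. In each line 1 was higher, Slc38a2, a carrier of neutral amino acids, at 1.249, 1.44 and 1.63, while 0 of 8, 4 of 9 and 3 of 8 were lower. Slc7a3, a carrier of cationic amino acids, was at -1.10 in YTHDC1 and -1.04 in ZCCHC8 cells, and Slc7a11, the cystine carrier, at -1.67 in YTHDC1 cells. Of the 10 transcription factors and secreted proteins, 2, 2 and 3 were higher and 0, 1 and 3 lower. Cebpg, a partner of ATF4, was at 1.14, 1.16 and 1.11 (adjusted p = 0.00299, 8.594e-05 and 5.183e-10, edgeR), and Atf3 at 0.98, 0.98 and 0.93. Gdf15, a secreted stress factor, was at -1.09 in ZCCHC8 cells, and Eif4ebp1, which binds the cap-binding factor eIF4E, at -0.47 in YTHDC1 cells.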

How the data were processed

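Newly made RNA was measured in 36 libraries (TruSeq stranded total RNA, paired ends, NextSeq500), grouped by the sample labels. The authors discarded reads of ribosomal RNA, aligned the rest to mm10 with STAR 2.5.2b, accepted unique end-to-end alignments with few mismatches only, and then estimated new RNA with GRAND-SLAM, separately for the 6 libraries of each line and replicate. Its version, the annotation release, the use of strand and any gene filter are not given in the sources used here. Reads with many conversions can fail such a mismatch rule, which would lower counts of strongly labelled RNA. The read counts deposited by the authors are whole numbers per gene, not normalized. The deposited MAP ratio and its posterior quantiles are fractions from 0 to 1. The conversion and coverage values deposited by the authors are sums over reads. Of the library columns 216 were used and 216 were not.

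CPM was computed on TMM library sizes. Arms, chase times and their interactions were tested on counts with the quasi-likelihood F test of edgeR 4.0.16 (robust, TMM, low counts removed by filterByExpr). Values of p were adjusted by Benjamini-Hochberg over every gene tested and judged at 0.05. The models had chase time or arm as a further factor, and fold changes are of these fits. The 3 chase times of a replicate entered as separate libraries. The ratio was tested with limma 3.58.1 on log2(MAP ratio + 0.01) over genes with at least 20 reads in every library of the line, so differences of low ratios are understated. Half-lives were log-linear fits without a test. No unlabelled library was used, so no background was subtracted. Replicates differed by more than sampling noise (chi-square per degree of freedom 2.45 to 77.9). Same-numbered Ctrl and dTAG libraries deviated together from their group means (r = 0.288 to 0.871 in the 9 line and chase time combinations), so the numbers pair the libraries. The authors state that wells of a biological replicate came from the same cell batch. The main fits leave this pairing out, so a gene called only with the block cannot be taken as unchanged. A replicate block was an alternative, beside DESeq2 1.42.0, its size factors, no filter on low counts, summed chase libraries, 0 min or Ctrl libraries alone, single replicates, an offset of 0.001, a minimum of 100 reads, and the T-to-C rate. The tests were tried on simulated data. The counting error of low genes is covered by no interval here, and PCR reads are not independent molecules.

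The members and lists were chosen with earlier results of these data known. The rule for named genes was all 9 members, of each further list up to 3 genes per line with the largest changes past the threshold and in 1 direction in every pair, and the 5 most like genes. Scripts ran in Python 3.11.15 (pandas 2.3.3, numpy 2.4.6, matplotlib 3.10.9) and R 4.3.3.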

Additional observations from a re-analysis of the deposited data

Results flagged for a closer look

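The response of Ddit3 to dTAG-13 differed between lines by a test of the difference itself. It was higher in the ZCCHC8 line than in the METTL3 line by 0.73 on the log2 scale (SE 0.248, edgeR quasi-likelihood adjusted p = 0.032), with -0.68 in the METTL3 line, where 0 of 6 pairs were higher, and 0.08 in the ZCCHC8 line, where 4 of 6 were. Over the 6 alternatives the difference was 0.74 to 0.80. The lines are single clones in separate tables, and Ddit3 had 34 to 136 reads per library and an overlapping locus of the same name. The part of these in the difference was not tested.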

How the results depend on the processing

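Of 101 counts or summary values under alternatives 72 were within 1.5 times the main count or 1 SD of the main value, and 29 moved. For the arms, the main counts were 1, 0 and 5 members called (METTL3, YTHDC1 and ZCCHC8). With the replicate block they were 3 and 2 in METTL3 and YTHDC1, with DESeq2 size factors 2 in METTL3, with summed chase libraries or 0 min libraries alone 0 in METTL3 and 1 in ZCCHC8, and with 1 replicate left out 2 to 5 in METTL3 and 1 to 2 in YTHDC1. Over the chase the main counts were 1, 2 and 5, with the block 4 in METTL3 and 6 in YTHDC1, with Ctrl libraries alone 0, 0 and 3, and with 1 replicate left out up to 4 in METTL3 and 4 to 5 in YTHDC1. For differences between responses the main counts were 0 (METTL3 against YTHDC1), 0 (ZCCHC8 against YTHDC1) and 1 (ZCCHC8 against METTL3), with the block 4, 2 and 4, with DESeq2 1 in METTL3 against YTHDC1, and with 1 replicate left out 2 to 5, 1 to 2 and 3 to 4. Leaving out a replicate left 1 library per group, with the spread taken across chase times and the lone library assumed to vary like the others. Of the calls of the 9 members, the block changed no others than those given beside the results, and the MAP ratio and label loss gave 0 members called under all alternatives.

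Of 388 values of single genes 13 changed sign, all from values that were not called except Trib3 in the ZCCHC8 line. In METTL3 these were Trib3 (-0.014 at 0 min alone, -0.18 to 0.30 with 1 replicate left out), Ddit4 (-0.28 to 0.10) and Atf5 (-0.17 to 0.43). In YTHDC1 they were Ddit4 (0.0017 with the block, -0.084 to 0.064 with 1 replicate left out), Ddit3 (0.069 at 0 min alone, -0.15 to 0.039), Trib3 (-0.12 to 0.038), and at 0 min alone Chac1 (-0.074) and Sesn2 (-0.061). In ZCCHC8 they were Ddit3 (-0.044 to 0.23) and Trib3 at 0 min alone (0.027). A further 53 gained and 22 lost a call. The cause was not tested. Chac1 had 9 to 37 reads per METTL3 library.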
